A study of Drosophila melanogaster with 8 samples.

Results

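The genes described here are the cytosolic chaperones and heat shock genes of Drosophila melanogaster, read from bulk RNA-seq of macrophages sorted from embryos. They were chosen by gene symbol, with earlier results of these data known, and 38 of the 17494 genes in the tables matched. The set holds the heat-inducible Hsp70 copies and Hsp68, the small heat shock genes with their neighbours at cytological region 67B, Hsp83, the Hsc70 cognates and Hsc70Cb, J-domain and BAG co-chaperones, the heat shock factor Hsf, all 8 subunits of the chaperonin CCT, and 5 prefoldin subunits. The symbols did not take in Stip1 (the Hop co-chaperone), CG4456 (Hsp67Bb) or mgr (a prefoldin subunit), which are given separately.

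The macrophages, called hemocytes in flies, carried a 3xmCherry tag and were sorted by fluorescence from dissociated embryos collected at stage 11 and 29 °C, and their polyA RNA was sequenced with 50 base reads. There were 4 wild type (WT) libraries and 4 CG9005 mutant libraries. The genotype field reads the same for both groups, so the groups come from the sample titles, and the sources used here give neither the allele nor the driver of the tag nor the number of embryos per library. A stage field counts from 11 to 18 and follows genotype, while the protocol gives stage 11 for both. All 8 libraries came from 1 temperature, so the response to heat itself was not compared. Nothing says that replicates were separate collections, so each p-value covers only how far these libraries scatter, in part perhaps for technical reasons.

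Chaperones bind unfolded proteins and help them reach or regain their folded state. Constitutive forms such as Hsc70-4 and CCT serve newly made proteins at all times, whereas the inducible forms Hsp70, Hsp68 and the small heat shock proteins are switched on by the transcription factor Hsf when proteins unfold, for example in heat. Several small heat shock genes of the fly are also transcribed during normal development.

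Each library held 15782570 to 18942786 reads as recovered from the deposited transcripts per 1000000 (TPM), over 8882 to 10593 genes with a value above 0. TPM is corrected for transcript length, so levels of different genes can be set side by side within a library. The 14 macrophage markers summed to 6488 to 10525 TPM in WT and 8186 to 9864 TPM in the mutant. They were led by the phagocytic receptor gene NimC4 at 5897 ± 1646 and 6181 ± 872 TPM (SD, n = 4 each), which was not called (limma adjusted p = 0.896). Of the 13 tested, 1 other was called higher in the mutant, or 7.69% against 1.67% of all tested genes. The 4 crystal cell markers summed to 458 to 842 TPM in WT and 418 to 544 TPM in the mutant, led by PPO2, which was not called (limma adjusted p = 0.508). Of these 4 markers, 1 other was called lower in the mutant, or 25% against 1.67%. Neuron and glia markers summed to 127 to 183 TPM, muscle markers to 92.0 to 153 TPM, epidermis, gut and trachea markers to 42.5 to 111 TPM, and germ line markers to 3.10 to 7.53 TPM, led by moody, how, shg and ovo, and none of these markers was called. No marker of any list was at 0 in all 8 libraries. The mRNA of CG9005 itself was not called (WT 87.8 ± 18.4 TPM, mutant 89.1 ± 12.2 TPM), so its level does not check the labels. In bulk RNA, fewer cells of a type and less RNA per cell cannot be told apart.

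Together the 38 genes made up 0.780% to 1.31% of all TPM in a library. The order of levels mixed both classes. Hsp23 and Hsp26, inducible small heat shock genes, had the highest means, and the constitutive Hsc70-4 and the Hsp90 gene Hsp83 came next. The J-domain gene DnaJ-1 and the small heat shock gene Hsp27 followed, then CCT3, Pfdn4, Pfdn5 and Hsc70Cb. The 11 inducible genes summed to 3367 to 8137 TPM in WT and 3811 to 6807 TPM in the mutant. The 21 constitutive genes summed to 2588 to 3283 TPM in WT and 2753 to 3127 TPM in the mutant. Hsp83, DnaJ-1 and stv, which are constitutive and raised further by heat, were in neither sum. By these sums the inducible forms were above the constitutive ones in every library, with a ratio of 1.80 ± 0.747 in WT and 1.66 ± 0.438 in the mutant (SD, n = 4 each). The lowest ratio, 1.03, was in WT replicate 4 and the highest, 2.79, in WT replicate 1. Hsp23, Hsp26 and Hsp27 alone held 37.7% to 58.3% of the TPM of the whole set, so the ratio rests largely on 3 genes. The order also rests on the classes. With Hsp83, DnaJ-1 and stv counted as constitutive, the ratio was 1.14 ± 0.409 in WT and 1.15 ± 0.273 in the mutant (SD, n = 4 each) and below 1 in WT replicates 2 and 4 and mutant replicates 2 and 3. Without the Hsp70 copies, and with those 3 genes again left out, it was below 1 only in WT replicate 4, at 0.971.

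**Figure D1:**
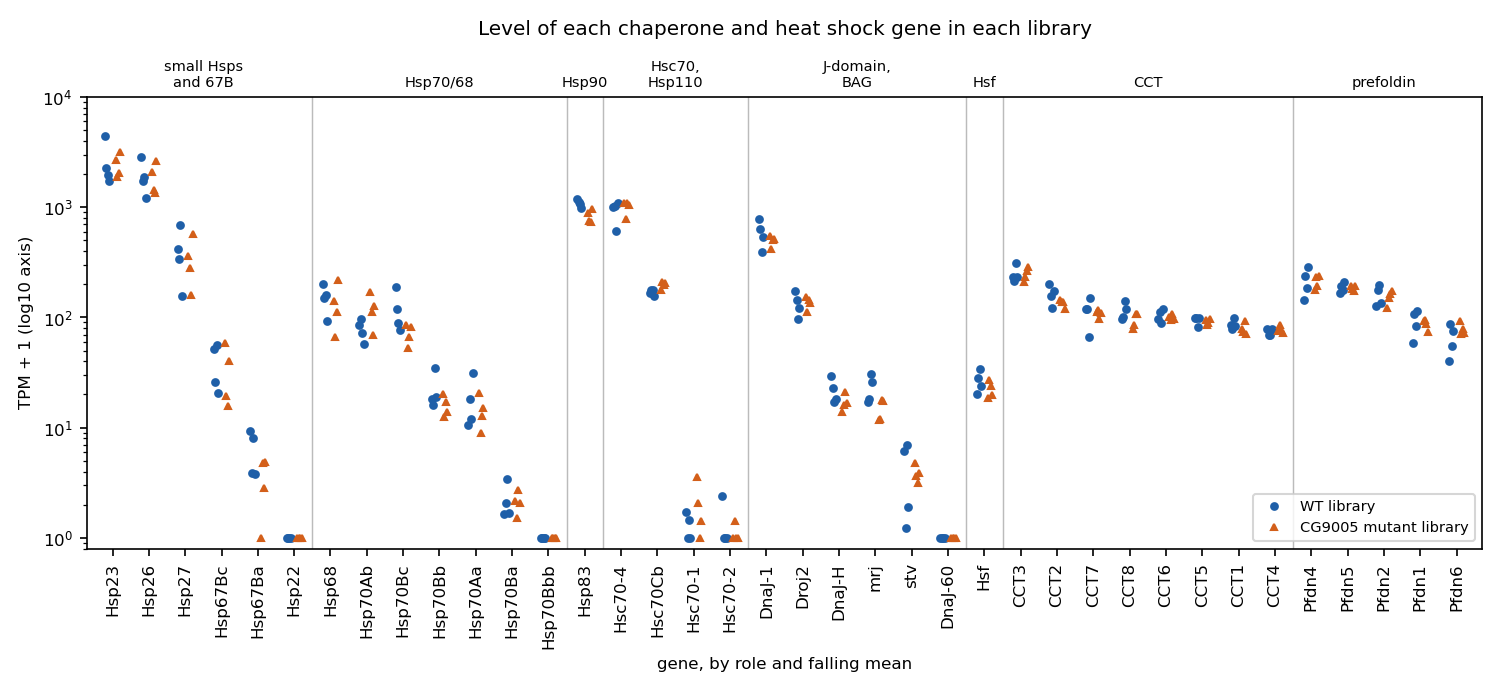
TPM + 1 on a log10 axis for each of the 38 genes in each library, ordered by role and falling mean, with circles for the 4 WT libraries and triangles for the 4 CG9005 mutant libraries. Hsp23 and Hsp26 hold the highest means of the set, while Hsp22, Hsp70Bbb and DnaJ-60 are at 0 in all 8.

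Of the 38 genes, 33 reached the minimum of 1 TPM in at least 4 libraries and were tested. The test was limma on log2(TPM + 1), with Benjamini-Hochberg adjustment over all 7827 genes tested and a call at an adjusted p under 0.05. No chaperone or heat shock gene was called, 0 of 33, against 131 of 7827 genes in all, or 1.67%. At an unadjusted limma p under 0.05 there were 4 of the 33, or 12.1%, and 950 of all tested genes, also 12.1%. The 4 were Hsp83, Hsp70Bc, mrj and Hsp70Ab. Groups that did not overlap were found for 1 of the 33, Hsp83, and for 7.77% of all tested genes. With voom on the recovered reads 0 of 33 were called, against 1.13% of the genes it tested, and 5 of 33, or 15.2%, had an unadjusted p under 0.05, against 11.1%. By unadjusted limma p the set therefore held the same share as the transcriptome. Its median log2 difference, mutant minus WT, was −0.06, and that of all tested genes was also −0.06. Of the 33 differences 9 were above 0 and 24 below, over a range of −1.02 to 0.58, and of all tested genes 3264 were above 0 and 4563 below. That split depends on the scaling, since 18 of the 33 were above 0 with median centring, 17 with voom and 16 with quantile normalisation. The authors' deposited table lists 35 of the 38 genes, none with an adjusted or an unadjusted p under 0.05 there.

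**Figure D2:**
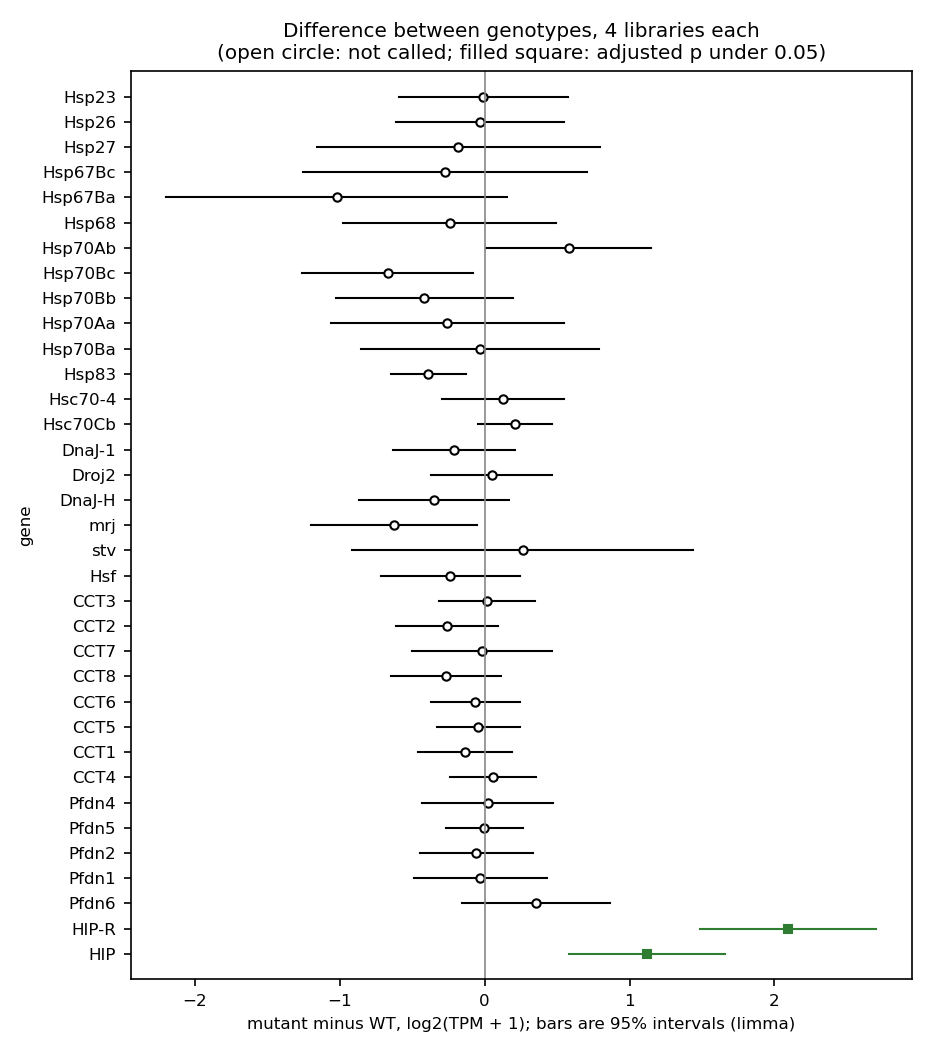
Mutant minus WT difference on the log2(TPM + 1) scale for the 33 tested genes and for HIP-R and HIP, with 95% intervals from limma over 4 libraries per group. The open circles, from −1.02 for Hsp67Ba to 0.58 for Hsp70Ab, were not called, and the filled squares of HIP-R (2.10) and HIP (1.12) were.

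The small heat shock proteins are ATP-independent holdases that keep unfolded proteins from clumping. Their genes stand side by side on chromosome 3L from 9371511 (the start of Hsp67Bc) to 9385694 (the end of Hsp27, BDGP6), yet their levels ran from 0 (Hsp22) to 4381 TPM (Hsp23 in WT replicate 1). Hsp23 (3L, 9381882 to 9382765, plus strand) was at 4381, 2267, 1971 and 1736 TPM in WT replicates 1 to 4 and at 2700, 1889, 2046 and 3187 TPM in mutant replicates 1 to 4. WT replicate 1 was the highest, the mutant values lay within the WT range, and Hsp23 ranked between 57 and 105 among all genes of a library. Its means were 2589 ± 1215 and 2455 ± 601 TPM (SD, n = 4 each), and on the log2 scale they differed by −0.01 (95% interval −0.59 to 0.58, limma adjusted p = 0.995). Hsp26 was at 2843, 1737, 1869 and 1204 TPM in WT and at 2073, 1420, 1333 and 2601 TPM in the mutant. Again WT replicate 1 and mutant replicate 4 were the highest of their groups, and the log2 difference was −0.03 with an interval of −0.61 to 0.55 (limma adjusted p = 0.980).

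Hsp27 was lower and more scattered, at 414, 340, 688 and 156 TPM in WT and 361, 282, 157 and 566 TPM in the mutant. The highest value was 4.43 times the lowest, each group held high and low libraries, and the interval of the log2 difference, −1.16 to 0.79, was wide (limma adjusted p = 0.925). Hsp67Bc, which also encodes a small heat shock protein, was at 50.2, 25.2, 54.9 and 19.6 TPM in WT and at 57.7, 18.4, 14.6 and 39.4 TPM in the mutant, a log2 difference of −0.27 (limma adjusted p = 0.879). Hsp67Ba reached 2.79 to 8.41 TPM in the WT libraries and 0 to 3.88 TPM in those of the mutant, with 0 in mutant replicate 1 only. Its log2 difference of −1.02 was the lowest of the set, with an interval of −2.20 to 0.16 (limma adjusted p = 0.494), and 75.9% of its exon bases lie opposite the antisense gene asRNA:CR43481. Hsp22 had 0 reads in all 8 libraries, where 3 reads are worth 0.109 to 0.146 TPM. All of its exon bases are shared with CG4456 on the same strand, which had 36 reads in all. The part of that overlap in the value of Hsp22 was not tested, so 0 reads set no upper limit on its level. The median log2 difference of the 5 tested genes at 67B was −0.18.

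Hsp70 is the ATP-driven chaperone that the fly carries in near-identical copies, Hsp70Aa and Hsp70Ab at 1 site on chromosome 3R (11954163 to 11960909) and the Hsp70B genes at another (12465453 to 12511461). The sources used here do not say how reads that match several copies were counted, so the split between copies is uncertain. The 6 copies summed to 297, 248, 207 and 181 TPM in WT and to 291, 183, 163 and 235 TPM in the mutant. These sums overlapped and stood at 0.149 to 0.342 of the level of Hsc70-4, and their log2 difference was −0.11. Hsp70Ab was at 83.7, 96.0, 71.0 and 56.1 TPM in WT and at 168, 112, 68.4 and 127 TPM in the mutant, where 3 of 4 libraries were above all of WT. Its log2 difference was 0.58, with an interval of 0.01 to 1.15 (limma adjusted p = 0.402, exact permutation p = 0.143, two-sided). Hsp70Bc was at 186, 119, 88.2 and 75.4 TPM in WT and at 83.6, 51.4, 65.3 and 80.2 TPM in the mutant. The groups overlapped, and the log2 difference was −0.67, with an interval of −1.26 to −0.08 (limma adjusted p = 0.339, exact permutation p = 0.114, two-sided). The TPM ratio of Hsp70Ab to Hsp70Bc was 0.449 to 0.809 in WT and 1.05 to 2.17 in the mutant. It was picked after the values were seen and rests on the uncertain split, so no test is given.

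Hsp70Aa ranged from 9.61 to 30.4 TPM (WT) and from 8.03 to 19.4 TPM (mutant), and Hsp70Bb at 15.1 to 34.1 and 11.6 to 19.4 TPM. Hsp70Ba was at 0.50 to 2.42 TPM on 15 to 61 reads, with 2 WT and 3 mutant libraries at or above 1 TPM. The log2 differences of Hsp70Aa, Hsp70Bb and Hsp70Ba were −0.26, −0.42 and −0.03, none called. Hsp70Bbb had 0 reads in all 8 libraries, where 3 reads are worth 0.0879 to 0.118 TPM. Since reads of this copy may have been dropped or given to another, that sets no upper limit on its level. Hsp68, an inducible relative of Hsp70 with a sequence of its own, was at 201, 150, 159 and 91.2 TPM in WT and at 139, 65.5, 111 and 218 TPM in the mutant. The WT values lay within the mutant range, with a log2 difference of −0.24 and an interval of −0.98 to 0.50 (limma adjusted p = 0.843).

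Hsp83 encodes the cytosolic Hsp90, which holds kinases, receptors and other clients near their active state, and is transcribed without heat and raised by it. Hsp83 (3L, 3192969 to 3197059, plus strand) was at 1181, 1103, 1059 and 983 TPM in WT and at 883, 748, 726 and 965 TPM in the mutant. Every mutant library was below every WT library. The means were 1081 ± 82.8 and 830.5 ± 113 TPM (SD, n = 4 each), and the mutant mean was 0.768 times that of WT. The log2 difference was −0.39 (SE 0.12), with an interval of −0.65 to −0.13, and it missed the threshold (limma adjusted p = 0.179). Its exact permutation p was 0.0286, two-sided, the smallest that 70 assignments of 4 libraries can give. With voom the log2 difference was −0.33 (limma adjusted p = 0.274), and the authors' deposited table gives −0.32 with a p of 0.972 and an adjusted p of 0.999999. The header of that table names the kind of test behind those p-values but not its settings or the values it was run on. Such a p beside groups that do not overlap leaves its meaning in doubt. Stip1, the co-chaperone that hands clients from Hsp70 to Hsp90, was named after its values were seen and was at 40.7 ± 2.79 and 44.2 ± 5.51 TPM (SD, n = 4 each), a log2 difference of 0.11 (limma adjusted p = 0.851).

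Hsc70-4 is the main constitutive Hsp70 of the cytosol and also strips clathrin from vesicles. It was at 1001, 1035, 604 and 1100 TPM in WT and at 1100, 775, 1095 and 1046 TPM in the mutant. In each group 1 library stood below the other 3, and the means of 935 ± 225 and 1004 ± 155 TPM (SD, n = 4 each) differed by 0.13 on the log2 scale with an interval of −0.30 to 0.55 (limma adjusted p = 0.864). Hsc70Cb, the Hsp110-type nucleotide exchange factor of Hsp70, was at 166, 178, 178 and 157 TPM in WT and at 176, 211, 195 and 204 TPM in the mutant. Here 3 of 4 mutant libraries were above all of WT, at a log2 difference of 0.21 with an interval of −0.05 to 0.47 (limma adjusted p = 0.526, exact permutation p = 0.0857, two-sided). Hsc70-1 and Hsc70-2 were barely read and were not tested. Hsc70-1 had 183 reads in all and at most 2.54 TPM, and Hsc70-2 had 57 reads, 45 of them in WT replicate 1. Hsp23 was above Hsc70-4 in every library, by 1.58 to 4.38 times in TPM.

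**Figure D3:**
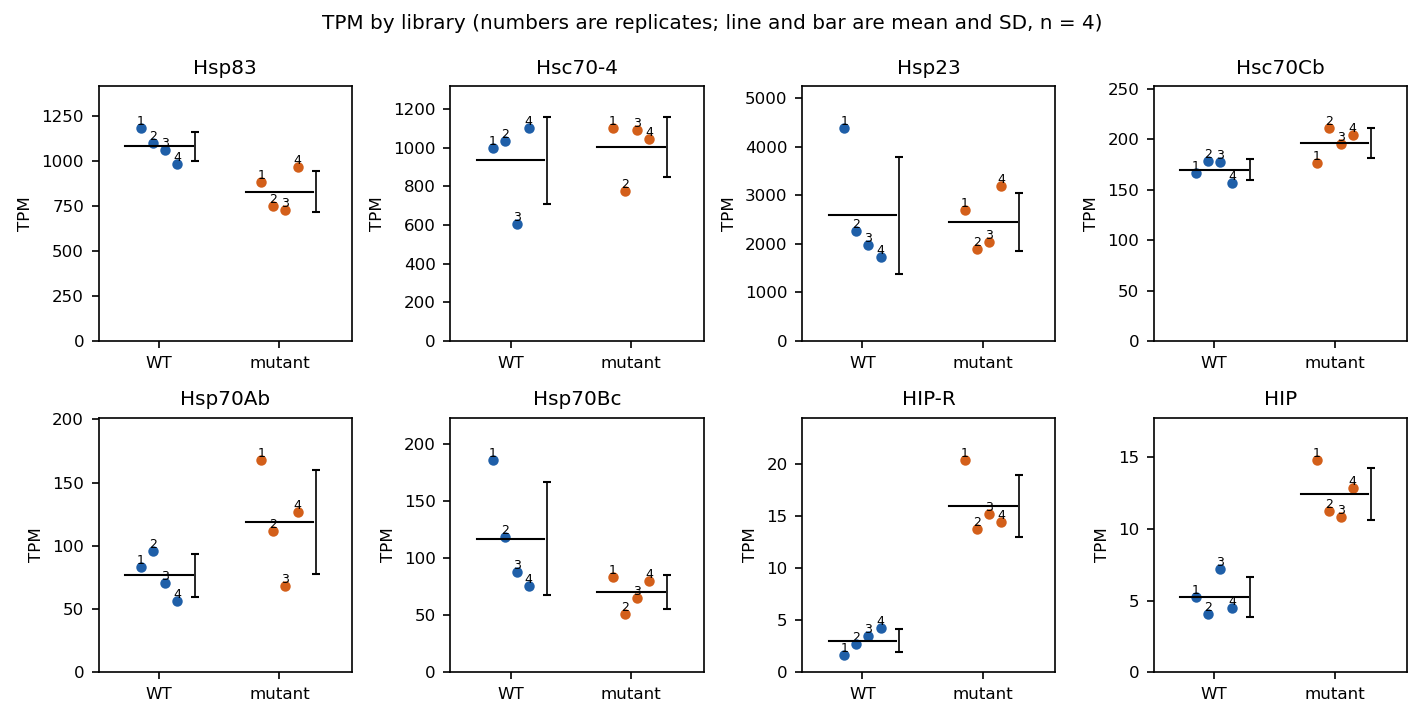
TPM in each library for 8 genes, with the replicate number at each point and lines and bars for the mean and SD of 4 libraries. The genotypes do not overlap for Hsp83, HIP-R and HIP, and overlap for Hsc70-4, Hsp23, Hsc70Cb, Hsp70Ab and Hsp70Bc.

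J-domain proteins bring clients to Hsp70 and start its ATP cycle. DnaJ-1, the fly Hsp40, was at 786, 635, 393 and 540 TPM in WT and at 550, 413, 503 and 516 TPM in the mutant. The mutant values lay within the WT range, and the log2 difference was −0.21 (limma adjusted p = 0.730). The J-domain gene mrj was at 16.0, 17.2, 29.9 and 24.8 TPM in WT and at 10.6, 11.0, 16.9 and 16.6 TPM in the mutant. The groups overlapped only through WT replicate 1, and the log2 difference of −0.62, with an interval of −1.20 to −0.05, missed the threshold (limma adjusted p = 0.359, exact permutation p = 0.114, two-sided). Droj2, at 94.9 to 174 TPM over all libraries, had a log2 difference of 0.05, and DnaJ-H, at 12.9 to 28.4 TPM, one of −0.35. DnaJ-H shares 22.8% of its exon bases with Sirt1 on the opposite strand. DnaJ-60 had 0 reads in all 8 libraries, as did CG42568, whose exons cover all of its bases on the same strand. The BAG domain gene stv (starvin), a nucleotide exchange factor for Hsp70, was at 5.19, 0.240, 5.98 and 0.923 TPM in WT and at 3.74, 2.66, 2.17 and 2.90 TPM in the mutant. WT held both its highest and its lowest libraries, and the log2 difference of 0.26 had an interval of −0.91 to 1.44 (limma adjusted p = 0.908).

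Hsf, the activator of the inducible genes, had means of 25.6 ± 5.88 TPM (WT) and 21.4 ± 3.80 TPM (mutant; SD, n = 4 each). The log2 difference was −0.24 with an interval of −0.71 to 0.24 (limma adjusted p = 0.736), and the range of 17.6 to 25.9 TPM in the mutant overlapped the 19.4 to 33.0 TPM of WT.

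CCT is a double ring that folds actin and tubulin, built from 1 copy of each subunit per ring, and prefoldin passes it those clients. The 8 CCT subunits had WT means of 73.0 TPM (CCT4) to 246 TPM (CCT3). The mRNA of the highest subunit was 2.83 to 4.68 times that of the lowest within a library. Summed, they reached 941 to 1048 TPM in WT and 883 to 965 TPM in the mutant, a narrow range beside that of the small heat shock genes. Their log2 differences ran from −0.27 (CCT8) to 0.06 (CCT4), with a median of −0.05 and no call. CCT8 was at 94.95, 99.4, 139 and 119 TPM in WT and at 77.3, 84.2, 106 and 107 TPM in the mutant, with overlapping groups (limma adjusted p = 0.602). CCT2 ranged from 121 to 198 TPM (WT) and from 118 to 142 TPM (mutant), and CCT5 at 81.7 to 98.1 and 85.2 to 95.7 TPM. The prefoldin subunits Pfdn4, Pfdn5, Pfdn2, Pfdn1 and Pfdn6 had WT means of 63.3 TPM (Pfdn6) to 212 TPM (Pfdn4). Their log2 differences were −0.06 to 0.35, the last for Pfdn6 (limma adjusted p = 0.615). Pfdn6 was at 39.1, 86.9, 53.5 and 73.7 TPM in WT and 92.5, 70.3, 78.0 and 71.5 TPM in the mutant, so every mutant library lay above 2 of the 4 WT libraries. The prefoldin subunit gene mgr, with a log2 difference of −0.17, and its relative uri, with 0.18, were not called either.

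Libraries of 1 genotype scattered widely in most inducible genes and little in several constitutive ones. For each tested gene the SD within genotypes was ranked among the 200 tested genes nearest in mean level, as a description with no test, since the genes share their libraries. Of the 9 tested inducible genes 6 stood at or above the 90th percentile of their neighbours, and of the 18 tested constitutive genes none did. Hsp27 stood at the 99.0th percentile, Hsp23 at 98.5, Hsp26 at 98.0 and Hsp68 at 97.0. Hsc70Cb and CCT4 stood at 1.5, CCT5 at 2.5 and Pfdn5 at 5.5, and 5 of the 18 constitutive genes were at or below the 10th percentile. Hsp67Bc, put in neither class, stood at 99.5. Hsp83 was at 38.5 and Hsc70-4 at 87.0.

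**Figure D4:**
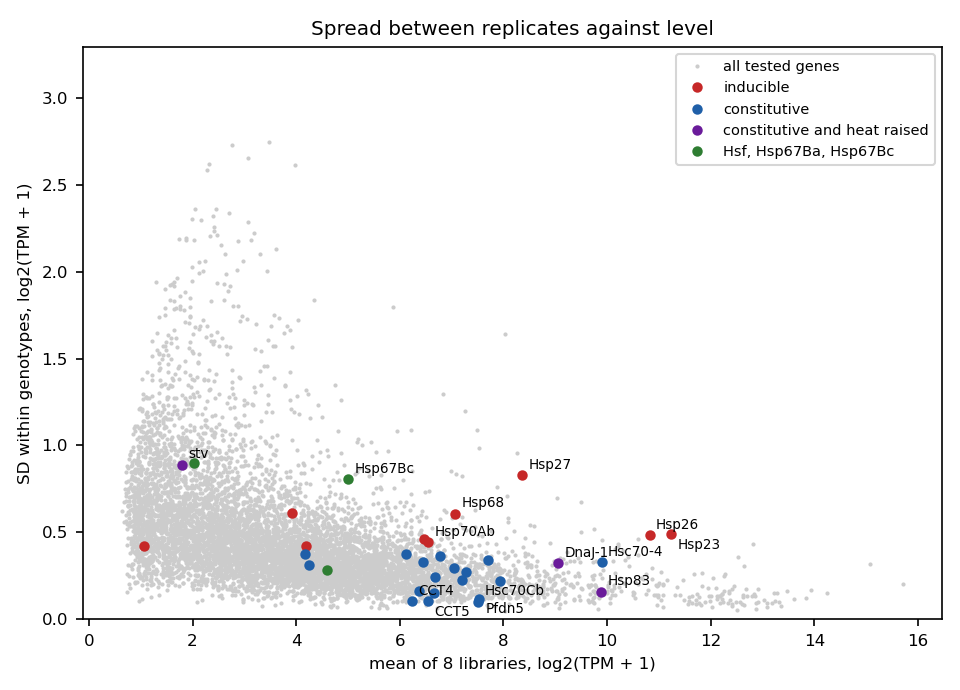
SD within genotypes against the mean of 8 libraries, both on the log2(TPM + 1) scale, with grey points for all 7827 tested genes and colours for the chaperone and heat shock genes by class. Hsp23, Hsp26, Hsp27 and Hsp68 lie near the upper edge at their level, and Hsc70Cb, CCT4 and CCT5 near the lower edge.

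Several of the scattered genes were high and low in the same libraries. Hsp23, Hsp26, Hsp27, Hsp67Bc and Hsp68 were all above the mean of their genotype in WT replicate 1, mutant replicate 1 and mutant replicate 4, and all below it in WT replicate 4, mutant replicate 2 and mutant replicate 3. In WT replicate 3, 4 of the 5 were above the mean, and in WT replicate 2 only Hsp68 was. WT replicate 4 was the lowest WT library for all 5 genes, with a median deviation of −0.66 on the log2 scale, whereas WT replicate 1 and mutant replicate 4 had medians of 0.54 each. The 8 CCT subunits had medians of 0.02 in WT replicate 1, 0.09 in WT replicate 4 and −0.02 in mutant replicate 4. Among the Hsp70 copies, Hsp70Ab and Hsp70Bc lay on the same side of their means as the 5 genes in WT replicates 1 and 4 and all mutant libraries. Hsp70Ab was only just below its mean in mutant replicate 2. Both copies were lowest of WT in replicate 4, at 56.1 and 75.4 TPM. They were above their means in WT replicate 2 and below them in WT replicate 3, unlike most of the 5 genes. The low copies Hsp70Aa, Hsp70Bb and Hsp70Ba departed from the pattern in WT, where each was below its mean in replicate 1. Hsp70Aa was highest of WT in replicate 4, at 30.4 TPM. In the mutant Hsp70Aa lay on the same side of its mean as the 5 genes in every library. Hsp70Bb lay on the other side in mutant replicates 3 and 4, and Hsp70Ba in mutant replicate 3. Over all 11 tested inducible and 67B genes, 8 were above the mean in WT replicate 1 and 7 in WT replicate 3, against 4 in WT replicate 2 and 1 in WT replicate 4. In the mutant 10 of the 11 were above it in replicate 1 and in replicate 4, against 1 in replicate 2 and 3 in replicate 3. Hsp68 lies on chromosome 3R, apart from the 67B genes. WT replicate 1 also had the lowest macrophage marker sum of WT, 6488 TPM against 9222 to 10525 TPM in the other WT libraries. Mutant replicate 1 had the lowest sum of the mutant, 8186 TPM against 9333 to 9864 TPM in the other mutant libraries. Mutant replicate 4, also high in the 5 genes, was at 9747 TPM. The part of cell composition in the pattern was not tested. The 5 genes and the Hsp70 copies set beside them were picked after their values were seen, so no test is given.

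**Figure D5:**
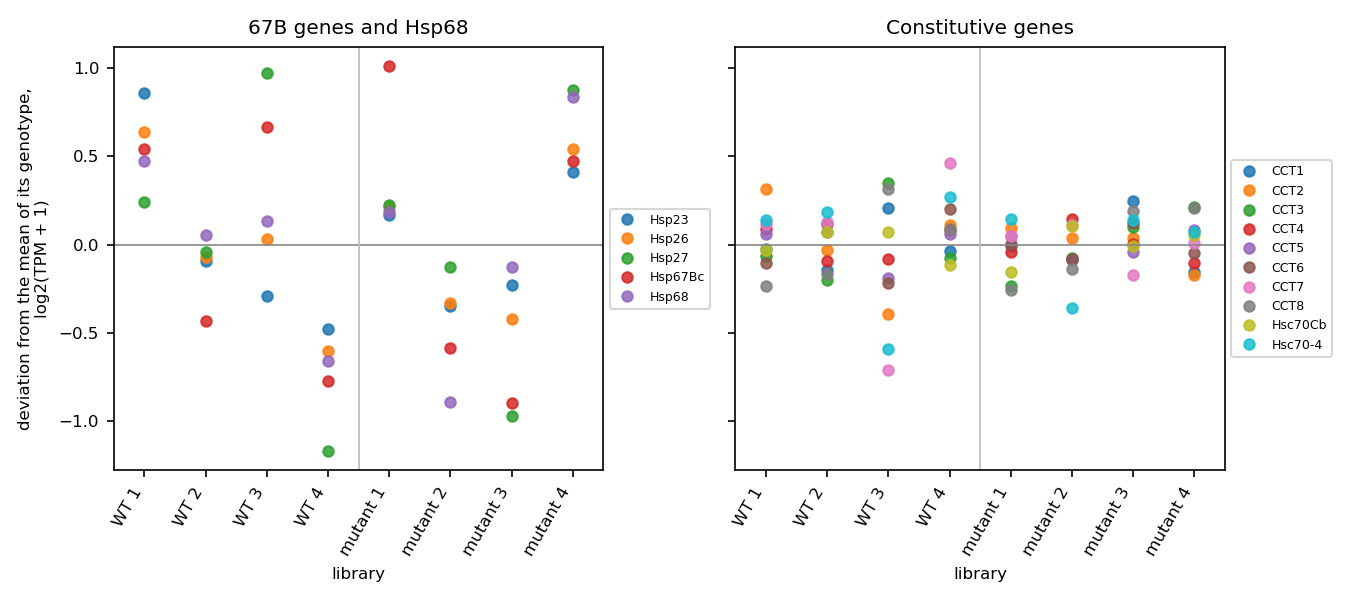
Deviation of each gene from the mean of its genotype in each library, on the log2(TPM + 1) scale, for 5 heat shock genes on the left and the CCT subunits, Hsc70Cb and Hsc70-4 on the right. On the left all 5 points are above 0 in WT replicate 1 and in mutant replicates 1 and 4, and all are below 0 in WT replicate 4 and in mutant replicates 2 and 3.

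Other genes of the folding and stress network were taken from lists drawn up with earlier results of these data known. Of 34 tested cytosolic chaperones and co-chaperones outside the set, 2 were called, or 5.88% against 1.67% of all tested genes, and with voom 1, or 2.94% against 1.13%. Both were higher in the mutant, and both are related to the Hsp70-interacting protein Hip, which steadies the bond between Hsp70 and its client. HIP-R (X, 3789969 to 3792477, plus strand) was at 1.70, 2.72, 3.45 and 4.30 TPM in WT and at 20.4, 13.8, 15.2 and 14.5 TPM in the mutant. Every mutant library was above every WT library. The means were 3.04 ± 1.10 and 15.9 ± 3.01 TPM (SD, n = 4 each), 5.24 times higher in the mutant, and the log2 difference was 2.10 (SE 0.28), with an interval of 1.49 to 2.70 (limma adjusted p = 0.00267, exact permutation p = 0.0286, two-sided). The authors' deposited table gives a log2 fold change of 2.53 and an adjusted p of 0.0229 for it. Its neighbour HIP (X, 3799150 to 3801570, plus strand) was at 5.23, 4.09, 7.24 and 4.49 TPM in WT and at 14.8, 11.3, 10.8 and 12.9 TPM in the mutant. Its log2 difference was 1.12 (SE 0.25), just past the threshold (limma adjusted p = 0.0490), and it missed it without any of 7 libraries in turn, all but WT replicate 3 (limma adjusted p = 0.0814 to 0.169). The authors' deposited table gives HIP an adjusted p of 0.624. The genes are related copies, on 53 to 562 reads per library for HIP-R, and the counting of reads that match both is not stated. Their sum was 6.80 to 10.7 TPM in WT and 25.1 to 35.2 TPM in the mutant, and every mutant sum was above every WT sum.

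Of 15 tested chaperones of the endoplasmic reticulum and mitochondria none was called by limma or by voom, and 4 had an unadjusted limma p under 0.05, 3 by voom. The 4 make up 26.7% of this list, against 12.1% of all tested genes. In 3 of the 15, or 20% against 7.77%, the groups did not overlap, and these were Gp93, ERp60 and Hsc70-3, each with a log2 difference below 0. Hsc70-3, the BiP of the endoplasmic reticulum, was named after its values were seen, at a log2 difference of −0.47 (limma adjusted p = 0.315). It was at 1294, 1967, 2191 and 1228 TPM in WT and at 1088 to 1226 TPM in the mutant, so its groups were only just apart. The Hsp90 of the endoplasmic reticulum, Gp93, had a log2 difference of −0.33 (limma adjusted p = 0.159), and the disulfide isomerase ERp60 one of −0.29 (limma adjusted p = 0.220). Of 24 tested genes of other stress responses 1 was called, or 4.17% against 1.67%, and none with voom. It was the stress-induced secreted peptide gene TotF, which was lower in the mutant at a log2 difference of −2.92 (limma adjusted p = 0.0347). Its call was kept without mutant replicate 2 or 4 and lost without any of the other 6 libraries, over a range of adjusted p of 0.0215 to 0.102 (limma). It was also lost with voom (limma adjusted p = 0.196).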

How the data were processed

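Per the file headers the values are TPM, 1 column per library, each summing to 1000000, and log2 fold changes with p-values and adjusted p-values in the authors' deposited comparison table, of which 4 copies held the same values. The submitters' processing notes name BDGP6, R 3.4.4, limma, edgeR, HTSeq 0.5.4p3 and STAR 2.5.1b with no roles, and strand and multi-mapping settings are not given there.

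The members and lists were chosen with earlier results of these data known. Named are all members, called genes of the other lists or else the 2 with the smallest p, and the highest marker per list. Limma 3.58.1 (R 4.3.3, trend in the variance prior, genotype only) was fitted to log2(TPM + 1) over genes that reached 1 TPM in 4 or more libraries and tested on simulated data. Differences on this scale understate changes of low genes. A count model was foreseen only for counts. Reads were recovered as TPM times union exon length (Ensembl release 115, BDGP6), whole within 0.05 reads for 98.8% to 99.0% of genes, for voom and for floors of 3 reads, which cover counting error only. Of the 33 tested members 30 reached 1 TPM in all 8 libraries. Alternatives were other scalings, filters, pseudocounts, weights, a replicate block, the stage field and each library left out. Summing the Hsp70 copies, summing HIP with HIP-R, and counting heat-raised genes as constitutive were added after seeing the data. No genome sequence was used, so promoter motifs were not analysed here.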

Additional observations from a re-analysis of the deposited data

Results flagged for a closer look

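In 70 groups of 4 libraries, 1 per gene and genotype, 3 held a library far from the other 3, where about 1 in 20 groups would by chance. CCT5 was at 81.7 TPM in WT replicate 3 against 97.1 to 98.1 TPM in the other WT libraries. Hsp70Bb was at 34.1 TPM in WT replicate 3 against 15.1 to 18.0 TPM. Hsc70-4 was at 775 TPM in mutant replicate 2 against 1046 to 1100 TPM.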

How the results depend on the processing

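No chaperone or heat shock gene was called under any of the 19 alternatives, and the smallest adjusted p was 0.130 (limma, without mutant replicate 3). Hsp83 was lower in the mutant in all of them, at −0.46 to −0.28 on the log2 scale. The 131 calls over all genes fell to 76 with no filter, 75 at 10 TPM or more, 52 with the replicate block and 9 with the stage field as a covariate, and ranged from 71 to 110 with 1 library left out. The 3 calls among the other lists became 1 with no filter, with a pseudocount of 0.1, with voom and with the replicate block, and 0 with the stage covariate, and ranged from 1 to 2 with 1 library left out. HIP-R was called in every setting but the stage covariate (log2 1.72, limma adjusted p = 0.393). HIP was also lost with voom (limma adjusted p = 0.0544), both other filters, both other pseudocounts, the block and the stage covariate. TotF was lost with no filter (limma adjusted p = 0.113), a pseudocount of 0.1 (0.117), no trend (0.0638), array weights (0.0601), the block (0.0679) and the stage covariate (0.426). Counting Hsp83, DnaJ-1 and stv as constitutive, chosen after seeing the data, took the mean mutant ratio of inducible to constitutive forms from 1.66 to 1.15. The stage covariate moved the medians of the 67B genes to 0.51, of prefoldin to −0.33 and of the J-domain and BAG genes to 0.25, and quantile normalisation moved that of CCT to 0.0154. It largely follows genotype, which widens the error, and with it mrj was at −1.61 and Hsp70Ab at 1.39, neither called. Of 624 differences of uncalled members under the alternatives, 79 had the other sign, in 21 members, and none of these was called. Same-numbered libraries had correlations of −0.146 to 0.077 in their deviations, which gave no sign of pairing. The labels do not say whether the numbers pair them, and low correlations of deviations from means of 4 libraries cannot exclude it. Low members such as Hsp70Ba, on 15 to 61 reads, are limited by depth.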
